A study of Drosophila melanogaster with 93 samples.

Results

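The 8 libraries described here compare H3K9me3 in all neurons of the head with H3K9me3 in the fru P1 neurons of the same age and sex. They are the 4 elav and the 4 fru P1 libraries of 1-day adult Drosophila melanogaster males, out of 31 H3K9me3 peak lists and 93 samples in the series, and they were chosen by their labels alone. Chromatin came from heads of about 1000 flies per replicate, frozen 16 to 24 hours after eclosion. Every fly carried UAS-Chromatag, a transgene for a biotinylated, tagged histone H2B, together with UAS-Gal4. The elav flies carried elav-Gal4, which drives the transgene in neurons generally, and the fru P1 flies carried fru P1-Gal4, which drives it in the neurons that transcribe fruitless from its P1 promoter. Chromatin was precipitated with an H3K9me3 antibody and then with streptavidin. The elav libraries therefore hold a mixture of neurons that includes fru P1 neurons. Female libraries of the same cell types and age, 4 of each, are used below as samples that took no part in the male comparison.

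H3K9me3 is the methylation mark that HP1 proteins bind in heterochromatin. In Drosophila it is best known for the gene-poor sequence around the centromeres and for chromosome 4, a small chromosome whose genes lie among repeats. fruitless encodes BTB zinc finger transcription factors, and the male forms made from P1 transcripts are needed for courtship. fru P1 neurons are a minority of the neurons in the head.

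The measurement is the percent of a region's bases that lay inside the broad MACS2 peaks of a library, taken for each chromosome arm, each gene body and each 10 kb bin of dm6. The elav lists rested on 2295291 to 2661150 tags each and the fru P1 lists on 3856798 to 4582533 tags. Each elav list was called against the input of its own replicate, with 9951738 to 18468810 tags. The fru P1 lists were all called against the same male input total of 47601396 tags. The series holds a male fru P1 input for each replicate of this age, so that total need not be a single library. Depth, the input and the cell type therefore cannot be told apart in these libraries. The elav replicate 3 list stood apart, with a fragment length of 140 bp against 200 bp in the other 7 lists and with a median peak width of 640 bp against 940 to 986 bp in the other elav lists. Enrichment within peaks was low everywhere: the median fold enrichment was 1.59 to 1.72 in elav lists and 1.49 to 1.53 in fru P1 lists. Coverage of the 10 kb bins correlated at Spearman 0.776 to 0.842 between elav libraries, 0.781 to 0.819 between fru P1 libraries and 0.610 to 0.7997 between cell types, a description over bins that share depth and base composition.

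Peaks were placed differently along the chromosomes in the 2 cell types. Chromosome 4 was more covered in elav, at 25.8%, 24.4%, 31.5% and 41.2% in the elav libraries, against 21.5%, 18.9%, 8.42% and 11.54% in the fru P1 libraries. The groups did not overlap. Elav averaged 30.7 ± 7.65% and fru P1 15.1 ± 6.13% (SD, n = 4 each), a difference of 15.6 percentage points. The 1 Mb next to the centromere ends of 2L, 2R, 3L and 3R was also more covered in elav, at 11.4%, 10.3%, 12.6% and 12.2% in elav and 7.89%, 7.74%, 6.15% and 6.73% in fru P1, a difference of 4.505 points. Both kinds of sequence are the classical home of this mark. Over the rest of these arms the order was the opposite: elav covered 26.8 ± 1.44% and fru P1 34.0 ± 1.94% (SD, n = 4 each), and each of the 4 arms lay 6.26 to 7.57 points lower in elav. In both cell types the centromere ends, at means of 11.6% in elav and 7.13% in fru P1, were less covered than the rest of the arms. Chromosome 4 was less covered than that rest in fru P1 too. In level these lists therefore did not follow the classical pattern there, and only unique alignments had been kept.

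Of 13 such library values, 11 differed at an exact permutation p of 0.0286, two-sided, the smallest that the 70 divisions of 4 against 4 allow, or 0.0338 after Benjamini-Hochberg adjustment over the 13. When every list was cut to its 10000 peaks of smallest p, chromosome 4 still differed by 15.5 points and the centromere ends by 5.46 points, at the same exact permutation p of 0.0286. The deficit over the rest of the arms shrank to -1.85 points and no longer passed (exact permutation p = 0.114). Leaving out elav replicate 4, fru P1 replicate 3 or fru P1 replicate 4 left the chromosome 4 difference at 12.1, 13.4 and 14.5 points with an exact permutation p of 0.0571. Females gave the same order in libraries that the male values did not use, with chromosome 4 at 26.8 ± 5.69% in elav and 7.91 ± 2.19% in fru P1 and the centromere ends at 10.8 ± 0.888% and 4.41 ± 1.28% (SD, n = 4 each).

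**Figure D1:**
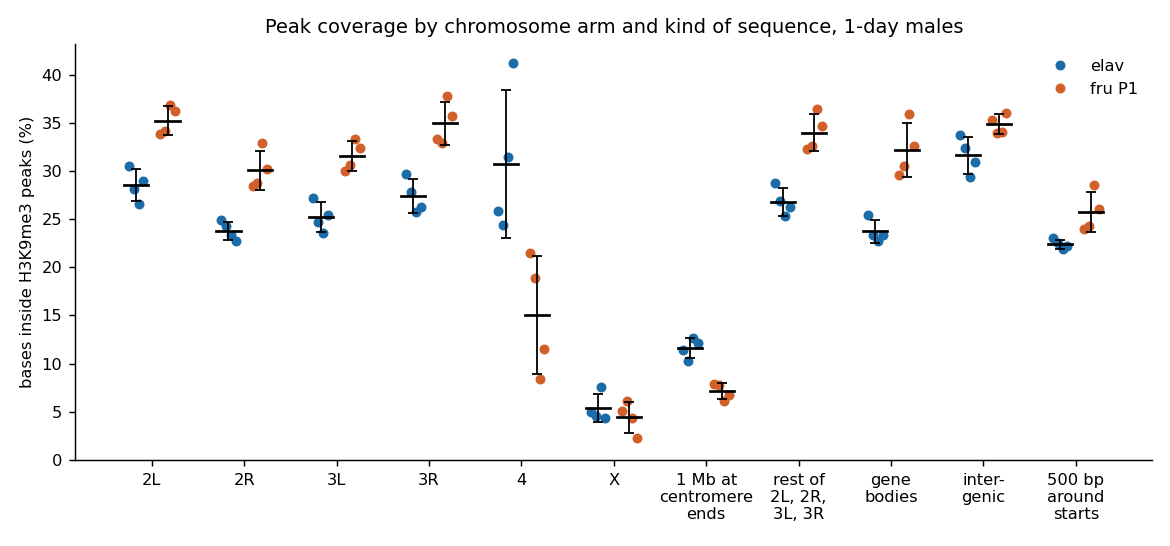
Percent of bases inside H3K9me3 peaks in each 1-day male library, by chromosome arm and by kind of sequence on 2L, 2R, 3L and 3R; points are libraries, bars the mean and SD of 4 elav (left of each pair) and 4 fru P1 libraries. Chromosome 4 and the centromere ends are higher in every elav library, the other autosomal sequence is lower in every elav library, and the X libraries overlap.

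The X chromosome was the exception. Peaks covered 4.95%, 4.60%, 7.53% and 4.39% of it in elav males and 5.07%, 6.10%, 4.304% and 2.25% in fru P1 males, so the groups overlapped (exact permutation p = 0.457). In females the X was covered at 22.6 ± 1.37% in elav and 28.9 ± 1.89% in fru P1 (SD, n = 4 each). Elav minus fru P1 was 0.936 points in males and -6.34 points in females, and the difference between the sexes gave an exact permutation p of 0.00653, or 0.0849 after adjustment over the 13 values. Few peaks were called on the male X in either cell type, and only 636 of its 1975 genes of at least 1 kb entered the gene comparison. The paper reports very few male X peaks across its male data, although DNA of that chromosome was precipitated and sequenced. Other settings and another peak caller added few. Male X values, the difference between the sexes included, are therefore limited by peak calling.

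The change of direction along the arms was gradual. In the bins from 0.5 to 1 Mb from the centromere end, elav libraries averaged 14.8% to 17.2% coverage and fru P1 libraries 8.18% to 10.5%. From 3 to 5 Mb the libraries overlapped, at 19.7% to 22.2% in elav and 18.3% to 20.65% in fru P1. Beyond 15 Mb elav libraries stood at 26.5% to 30.7%, all below the 35.1% to 41.1% of fru P1 libraries. Gene bodies also changed direction. They were taken as medians over tested genes in other distance classes, so their turning point cannot be set against that of the bins. Within 1 Mb of a centromere end the median difference in gene body coverage was 4.33 points (22 tested autosomal genes). It was 8.86 points at 1 to 2 Mb (57 genes), -7.74 points at 2 to 5 Mb (429 genes) and -12.31 points farther out (8255 genes).

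Around transcription starts, where nucleosomes are often displaced and active promoters carry other marks, coverage dipped in both cell types. Over 19494 starts on 2L, 2R, 3L and 3R, 19.9 ± 0.380% lay inside a peak in elav libraries and 22.2 ± 1.57% in fru P1 libraries (SD, n = 4 each). At 2 kb downstream of the start, a position past the end of shorter genes, the values were 22.3 ± 1.54% in elav and 32.0 ± 4.296% in fru P1. The start had 0.8289, 0.896, 0.916 and 0.942 times the coverage found 2 kb downstream in the elav libraries, against 0.736, 0.709, 0.636 and 0.707 times in the fru P1 libraries. The dip was thus shallower in every elav library (exact permutation p = 0.0286, also after adjustment over 5 values of the profile).

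**Figure D2:**
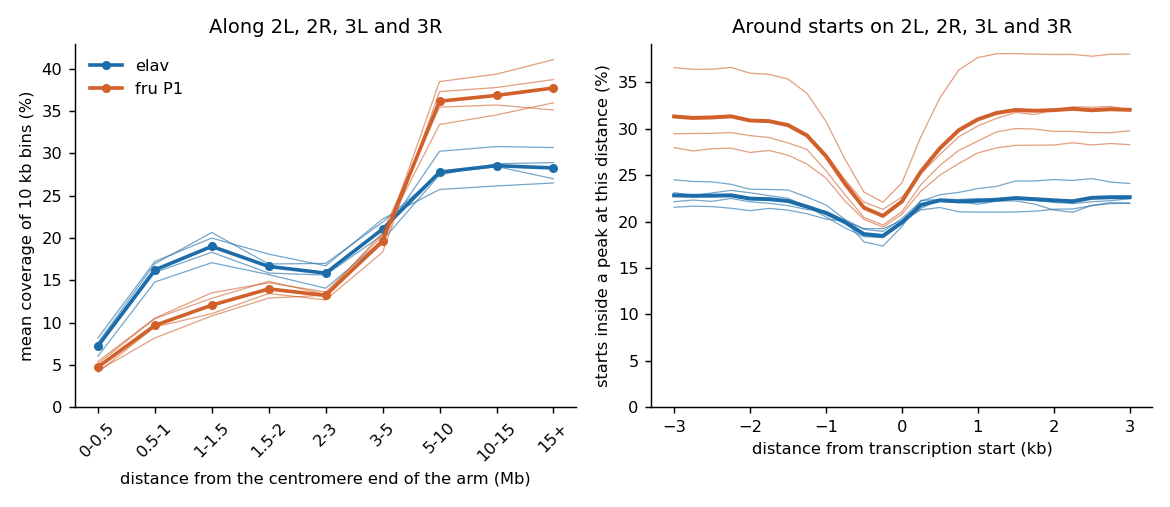
Left, mean coverage of 10 kb bins on 2L, 2R, 3L and 3R (percent of bases) against distance from the centromere end of the arm in Mb; right, percent of transcription starts on these arms that lie inside a peak at each distance in kb, negative values upstream. Thin lines are the 4 elav and 4 fru P1 libraries, thick lines their means; elav is above fru P1 up to 3 Mb and below it beyond 5 Mb, and the fru P1 profile has the deeper dip at the start.

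At the scale of 10 kb, 64 bins rose in elav and 524 fell among 10601 tested (limma, Benjamini-Hochberg adjusted p of 0.05 or less), which is 0.604% and 4.94% of the bins (551 bins, or 5.2%, and 2443 bins at an unadjusted p under 0.05). Every elav library lay above every fru P1 library in 384 bins and below in 1289 (3.62% and 12.2%). The median difference over all tested bins was -7.09 points. In the 64 higher bins the libraries averaged 47.7%, 47.7%, 55.4% and 54.8% coverage in elav and 24.2%, 21.3%, 15.2% and 13.8% in fru P1. In the 524 lower bins they averaged 13.4%, 11.2%, 10.8% and 10.6% in elav and 38.1%, 39.4%, 48.8% and 43.0% in fru P1. After each library was scaled to the same total coverage, 378 bins were higher and 284 lower (3.57% and 2.68%), so the balance of the directions depended on the scaling. The calls also depended on single libraries: without elav replicate 2, 3 or 4 no bin passed (497, 398 and 492 higher and 2021, 1886 and 2083 lower bins then had an unadjusted limma p under 0.05), and no bin passed with the 10000 peaks of smallest p (531 higher and 605 lower at an unadjusted limma p under 0.05). Without fru P1 replicate 3 or 4 the counts were 11 and 10 higher and 141 and 160 lower, without elav replicate 1 they were 17 and 81, and without fru P1 replicate 1 they were 123 and 833.

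Where the called bins lay matched the library values. Chromosome 4 held 13 of the 64 higher bins and none of the lower ones, out of 115 bins tested there. The 1 Mb at the centromere ends held 10 higher and no lower bins out of 146. The X held 9 higher and 3 lower bins out of 731. The remaining 32 higher and 521 lower bins lay in the other 9609 autosomal bins. Peaks in the higher bins had median widths of 1323 to 2069 bp in elav lists and 795.5 to 1093 bp in fru P1 lists, against 657 to 1009 bp and 1042 to 1133 bp over all tested bins. These widths describe bins that were chosen on coverage. In the lower bins the widths were 498 to 776 bp in elav lists and 1196 to 1495 bp in fru P1 lists, and the fold enrichment stayed between 1.46 and 1.65 in both.

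The sequences that follow come from the most strongly differing bins among those with such a window, 2 in each direction, and are shown because base composition differed between the called groups. Each is 160 bases of the plus strand of RefSeq Release 6 (dm6), taken at the middle of a stretch inside peaks of all 4 libraries of the more covered cell type and of no library of the other. Capitals mark runs of 6 or more A or T letters.
PlexA bin, chr4:1017633-1017792, more covered in elav: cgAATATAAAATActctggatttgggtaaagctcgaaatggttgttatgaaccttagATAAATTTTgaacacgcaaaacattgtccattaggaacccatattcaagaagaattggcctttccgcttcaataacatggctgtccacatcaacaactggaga
sv bin, chr4:1104333-1104492, more covered in elav: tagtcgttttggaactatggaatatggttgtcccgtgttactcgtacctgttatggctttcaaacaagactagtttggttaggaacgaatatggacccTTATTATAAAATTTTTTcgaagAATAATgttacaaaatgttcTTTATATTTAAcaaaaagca
Tmc bin, chr3L:9604066-9604225, more covered in fru P1: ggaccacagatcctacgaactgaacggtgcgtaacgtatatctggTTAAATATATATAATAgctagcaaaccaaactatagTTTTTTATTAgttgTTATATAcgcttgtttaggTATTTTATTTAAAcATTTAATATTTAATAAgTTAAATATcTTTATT
Eip63E bin, chr3L:3582989-3583148, more covered in fru P1: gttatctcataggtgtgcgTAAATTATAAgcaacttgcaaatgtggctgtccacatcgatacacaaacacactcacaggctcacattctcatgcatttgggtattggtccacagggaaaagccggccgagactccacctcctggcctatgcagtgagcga

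These windows hold 37.5%, 31.9%, 26.2% and 48.8% G and C in the order printed, so a single window does not show the trend of the bins. Over whole bins, the median G and C content was 40.7% in the 64 higher bins, 45.4% in the 524 lower bins and 42.4% in all bins tested. Runs of 6 or more A or T letters took up 16.6% of the bases in the higher bins, 12.2% in the lower bins and 15.7% in all. Outside chromosome 4 the 51 higher bins had a median of 42.9%, close to all bins, so the low value of the higher group rested on chromosome 4, whose tested bins had a median of 34.6%. The lower bins lay on 2L (82), 2R (142), 3L (147), 3R (150) and the X (3). Across the 9609 autosomal bins away from the centromere ends the elav minus fru P1 difference and G and C content had a Spearman correlation of -0.363, a description over bins that share libraries. The octamer TATCGATA, the core of the DRE promoter motif, was found on either strand in 42.2% of higher bins, 21.0% of lower bins and 21.6% of all tested bins, and in 63.5% of all tested chromosome 4 bins. Outside chromosome 4 it was in 35.3% of the 51 higher bins, and in 31.2% of the 32 higher bins on the autosomal arms away from the centromere ends. The repeats GAGAGAGA and CACACACA, searched the same way, were in 35.9% and 56.2% of higher bins, 34.9% and 72.1% of lower bins and 38.5% and 75.6% of all. A match does not show that a factor binds. Promoters were scarce in the higher bins: 60.9% of them held no transcription start, against 31.1% of lower bins and 35.5% of all.

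The adjacent called bins with the largest summed difference were short in both directions. The longest higher runs were 20 kb. On 2R the bins at 1010001-1030000, in which the annotation places no gene, were covered at 48.7%, 68.5%, 81.2% and 70.4% in elav and 30.2%, 19.6%, 13.3% and 10.3% in fru P1. On chromosome 4 the bins at 1000001-1020000 hold the end of toy, a Pax6 gene of eye development, and part of PlexA, a semaphorin receptor, and averaged 54.2 ± 15.1% in elav and 12.5 ± 7.01% in fru P1 (SD, n = 4 each). The bins at 1100001-1120000, with sv, the Pax2 homologue, and Cals, averaged 49.8 ± 11.8% in elav and 11.004 ± 6.31% in fru P1. The next were 1130001-1150000 on chromosome 4, with CG11155, CG32017 and Kif3C, at a difference of 30.3 points, and the single bin 1270001-1280000 of 2R, with no annotated gene, at 52.8 points. In females these 5 differed by 31.2 to 51.9 points in the same direction, with a largest adjusted p of 0.0325 (limma).

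The longest lower runs were 40 kb. At 8800001-8840000 of 2R, within sns, which encodes an immunoglobulin cell adhesion protein of myoblast fusion, coverage was 20.5%, 14.6%, 16.0% and 10.05% in elav and 44.05%, 47.0%, 64.1% and 37.9% in fru P1. At 4800001-4840000 of 3L, across Dhc64C, the heavy chain of cytoplasmic dynein, and LeuRS-m, elav averaged 10.0 ± 2.59% and fru P1 42.01 ± 12.4% (SD, n = 4 each). The bins at 25000001-25030000 of 3R hold tnc, Hr96 and Smg6 and averaged 25.7 ± 4.01% in elav and 61.2 ± 7.58% in fru P1. Part of Ten-m, a teneurin of synaptic partner matching, at 22350001-22380000 of 3L averaged 14.3 ± 4.498% in elav and 45.7 ± 7.99% in fru P1. The bins at 24100001-24130000 of 2R, with enok, a histone acetyltransferase, and tamo, averaged 5.197 ± 3.22% in elav and 33.4 ± 7.41% in fru P1. The female differences of these 5 runs had the same sign, from -9.84 to -29.6 points, but in none of them did every bin pass in females.

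Across all called bins the female libraries gave the same order. All 64 higher bins had a female difference above 0, where 28.1% of all tested bins did, and 38 of them passed the female test (3.97% of all bins did, and 8.4% at an unadjusted p under 0.05). Of the 524 lower bins, 514 had a female difference below 0, where 71.9% of all bins did, and 207 passed (12.0% of all, and 27.5% at an unadjusted p under 0.05). No bin passed the test of the male minus the female difference (limma, 10601 bins, 352 and 219 in the 2 directions at an unadjusted p under 0.05). Depth and inputs differed in females as in males, with 2442321 to 3012794 tags in elav lists and 4377902 to 6306013 in fru P1 lists, so they cannot be told apart from cell type there either. Male fru P1 libraries of other stages lay on the fru P1 side of the higher bins. They differ from the 1-day libraries in age, and those of 48hr APF, from whole pupae, also in tissue. Their coverage there was 15.3 ± 4.93% at 48hr APF and 16.3 ± 1.67% at 10-12 days (SD, n = 4 each), against 51.4 ± 4.29% in 1-day elav and 18.6 ± 4.94% in 1-day fru P1. Over all tested bins these stages had 26.4 ± 1.74% and 26.5 ± 2.002%. In the lower bins they had 26.7 ± 7.25% and 29.2 ± 5.88%, close to those all-bin levels. The 1-day values, on which the bins were chosen, were 11.51 ± 1.27% in elav and 42.3 ± 4.82% in fru P1 there.

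**Figure D3:**
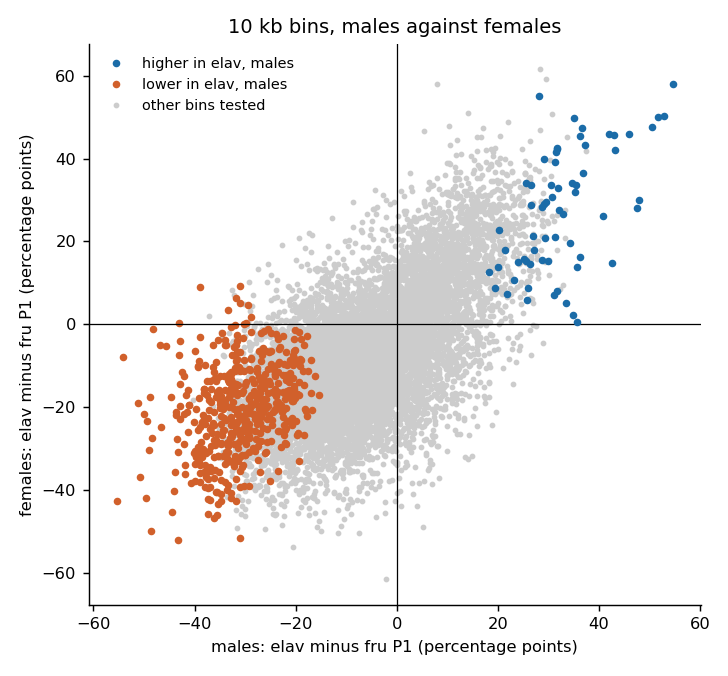
Elav minus fru P1 coverage of each tested 10 kb bin in percentage points, males on the horizontal and females on the vertical axis; blue points rose and orange points fell in elav in males, grey points did not pass. All 64 blue points lie above 0 in females and 514 of 524 orange points lie below 0.

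For single genes the data were noisier. Of 9484 genes tested, no gene passed at an adjusted p of 0.05 (limma, smallest adjusted p 0.0609, 0.0% in either direction), while 235 higher and 1486 lower genes had an unadjusted limma p under 0.05 (2.48% and 15.7%). The median difference was -11.16 points. In 156 genes every elav library lay above every fru P1 library and in 951 every elav library lay below (1.64% and 10.0% of the genes). Of these, 128 of the 156 and 915 of the 951 had the same sign in females, where 2169 of the 9484 genes were above 0. In the female test 37 genes rose and 208 fell (0.39% and 2.19%, or 3.32% and 21.4% at an unadjusted p under 0.05). Among the 2991 genes of at least 5 kb, fitted by themselves, 15 rose and 241 fell in elav (0.502% and 8.06%, adjusted p of 0.05 or less), and 14 and 238 of these had the same sign in females. The median difference by arm was -11.003 to -12.70 points on 2L, 2R, 3L and 3R, 1.60 points on the X and 18.29 points on chromosome 4. Of the 85 genes tested on chromosome 4, 81 were more covered in elav, 15 of them with no overlap between the libraries.

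The genes described next are those of at least 5 kb with no overlap between the groups and a symbol that is not a CG, CR or RNA number, 12 in each direction, in order of difference. Since none passed among all 9484 genes (adjusted p of 0.143 to 0.267 for the higher and 0.0947 to 0.202 for the lower, limma), their male values are a description, and the female libraries are the separate measurement. On chromosome 4, apolpp (FBgn0087002, 1060969-1077273), the precursor of the main lipoprotein of the blood, was covered at 59.3%, 58.2%, 66.1% and 67.6% in elav and 51.5%, 41.1%, 7.16% and 16.5% in fru P1. The fru P1 libraries spread widely while the elav libraries lay close together. In eIF4G1, a translation initiation factor on the same chromosome, elav had 37.9%, 37.0%, 44.8% and 76.5% and fru P1 29.1%, 30.7%, 6.10% and 4.68%. The other chromosome 4 genes were both transcription factors: fd102C, of the forkhead family, at 55.0 ± 15.3% in elav and 29.0 ± 10.8% in fru P1, and toy at 38.3 ± 7.20% and 14.2 ± 7.49% (SD, n = 4 each).

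Among the higher genes elsewhere, daw (2L, 2805261-2812376), an activin-like ligand of the TGF-beta family, had 66.4%, 62.2%, 64.4% and 57.3% in elav and 29.9%, 13.6%, 43.2% and 40.4% in fru P1. ImpL2, a secreted protein that binds insulin-like peptides, stood at 48.6 ± 19.9% in elav and 19.4 ± 5.30% in fru P1. The X-linked genes were Erk7, an atypical MAP kinase, at 38.7 ± 5.72% in elav and 7.92 ± 7.17% in fru P1, and vnd, a homeobox gene of the ventral nerve cord, at 43.96 ± 4.21% and 16.6 ± 11.1%. The other members were the zinc finger gene salm (difference 26.2 points), the Pax gene Poxm (23.6 points, where the lowest elav library had 64.8% and the highest fru P1 library 64.7%), the homeobox gene Gsc (23.3 points) and beat-Va, of the immunoglobulin Beat family (23.3 points). In the fit of genes of at least 5 kb, daw, Erk7, vnd and toy passed (adjusted p of 0.0349, 0.0230, 0.0344 and 0.0386). All 12 differences were above 0 in females too, from 2.81 points in beat-Va to 43.2 points in eIF4G1, and none passed there (smallest adjusted p 0.0689 in eIF4G1, limma).

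The lower genes differed by more in unscaled coverage, by -41.4 to -58.9 points against 23.3 to 33.7 points in the higher genes. The median of all genes was -11.16 points there. With scaled coverage the 12 lower genes stood at -27.4 to -48.9 points and the 12 higher genes at 33.0 to 49.4 points. The order of size thus depended on the scaling. SerT (2R, 24404595-24411074), the serotonin transporter of serotonergic neurons, was covered at 22.1%, 15.5%, 20.8% and 0% in elav and 41.9%, 78.4%, 87.0% and 86.7% in fru P1. Its female values were 11.47 ± 6.35% in elav and 71.3 ± 11.52% in fru P1 (SD, n = 4 each), a difference of -59.9 points that passed in females (adjusted p = 0.0190, limma). Gk2, a glycerol kinase, had 10.0%, 0%, 16.6% and 0% in elav and 39.9%, 48.1%, 55.1% and 51.7% in fru P1, and it too passed in females (difference -35.1 points, adjusted p = 0.0300, limma). Tmc, a channel protein of mechanosensation, had 24.2%, 15.5%, 16.4% and 10.5% in elav and 57.0%, 70.5%, 63.1% and 68.4% in fru P1. In Gk2 and Tmc the fru P1 libraries lay close together, while in SerT fru P1 replicate 1 lay well below the other 3.

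BubR1, a spindle checkpoint kinase, stood at 7.55 ± 9.40% in elav and 66.1 ± 17.5% in fru P1. Sec31, a coat protein of vesicles that leave the endoplasmic reticulum, stood at 4.16 ± 8.31% and 54.1 ± 15.9%, and scra, the anillin of the cleavage furrow, at 4.63 ± 9.26% and 52.8 ± 31.5% (elav before fru P1 in each, SD, n = 4). Wdr81 was free of peaks in all 4 elav libraries and had 38.6%, 43.0%, 80.1% and 11.51% in fru P1. Lpt, a subunit of a histone H3K4 methyltransferase complex, had a peak in elav replicate 3 alone and a mean of 43.3 ± 18.1% in fru P1. PolQ, a DNA repair polymerase, Dred, MnM and slf, a protein of the cuticle, differed by -41.4, -48.3, -44.9 and -43.5 points. All 12 passed in the fit of genes of at least 5 kb (adjusted p of 0.0145 to 0.0468) and all 12 were below 0 in females.

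**Figure D4:**
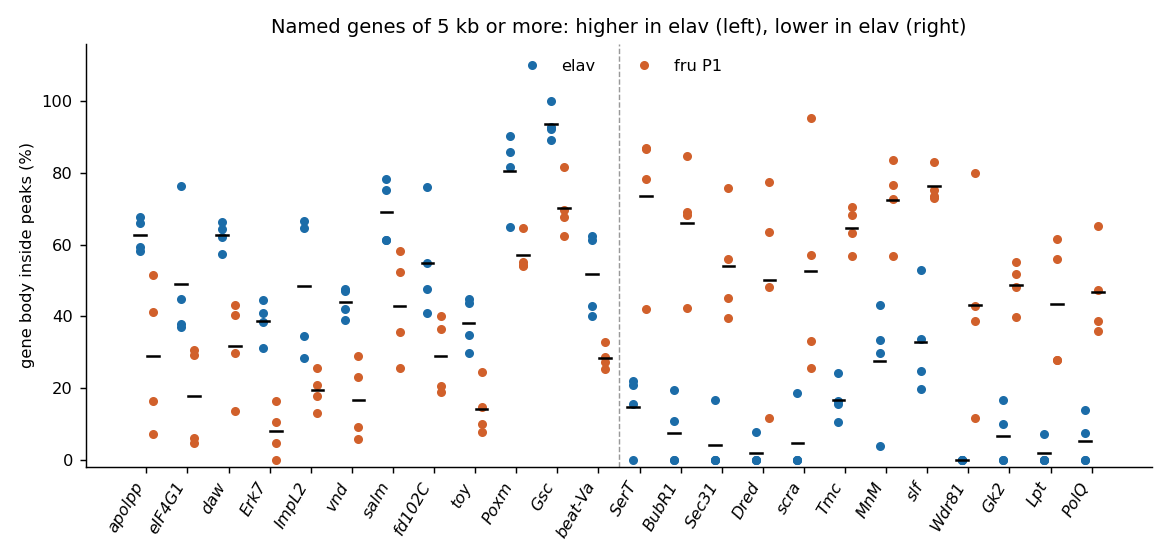
Percent of the gene body inside peaks for the 24 named genes; points are libraries, 4 elav (left) and 4 fru P1 (right) per gene, and bars are means. The 12 genes left of the dashed line are higher in every elav library and the 12 genes right of it are lower in every elav library.

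Gene lists differed in how they stood against all genes, of which 27.0% had a difference above 0. Developmental transcription factors were at the upper end. In 8 joined lists of Hox, Pax, T-box, LIM and other homeobox genes, retinal determination genes and temporal factors of neural progenitors, 93 of 113 tested members were more covered in elav, with a median difference of 10.39 points against -11.16 for all genes. In 14 members (12.4%) every elav library lay above every fru P1 library, where 1.64% of all genes did. In 1 member, Syp (0.885%), every elav library lay below, where 10.0% of all genes did. The joined members averaged 65.0 ± 6.97% in elav and 55.2 ± 6.79% in fru P1 (SD, n = 4 each). The libraries overlapped in this average, at 58.8%, 70.9%, 71.2% and 59.2% in elav and 63.1%, 53.5%, 57.1% and 46.9% in fru P1. Genes with high coverage in general leaned the same way, but less: among all 1185 genes with a mean of 60% or more, 642 (54.2%) were above 0, and among the 71 listed members of that class 66 were (93.0%). In that class every elav library lay above every fru P1 library in 6 listed members (8.45%) and in 47 of all genes (3.97%). Of the 92 members on 2L, 2R, 3L and 3R, 73 were above 0. In recounts added after the data were seen, the number of the 113 above 0 was 84 to 99 when 1 library was left out. It was 98 with the 10000 peaks of smallest p and 108 with scaled coverage, where 42.9% of all genes were above 0. Scaling raised well covered genes most, so that share is not a matched comparison. Scaled medians were -9.23 points in all genes with a mean of 5 to 20% and 24.4 points in those of 60% or more. In the 71 listed members of that upper class the scaled median was 36.4 points. In females 98 of the 113 were above 0. These counts are a description, since the lists were chosen with earlier results known.

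The Hox genes, which assign identity along the body axis, were among the more covered, with median coverages of 86.1% in elav and 67.8% in fru P1 in the Antennapedia complex and 91.2% in elav and 71.1% in fru P1 in the bithorax complex. All 3 bithorax genes were more covered in elav, with abd-A at 91.0%, 87.8%, 86.1% and 100% in elav and 81.9%, 66.9%, 74.4% and 61.3% in fru P1. Abd-B had 78.1%, 88.4%, 86.9% and 79.1% in elav and 75.1%, 68.6%, 57.9% and 61.2% in fru P1. Neither gene overlapped between the groups, and Ubx did, at a difference of 9.38 points. Of 9 Antennapedia complex members 8 were above 0, with a median of 16.15 points, and Scr was the member without overlap. Among 10 Pax genes 9 were above 0 (median 16.57), with the eye genes ey at a mean of 72.6% in elav and 43.4% in fru P1, with overlap, and toy as given above. Of 8 T-box genes 7 were above 0, and of 7 LIM-homeobox genes 6, with ap and Lim1 without overlap. In the list of 49 other homeobox genes 41 were above 0, vnd and OdsH without overlap.

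Retinal determination genes counted 15 of 18 above 0 (median 11.78). The eye gene eya had 67.2%, 88.1%, 84.7% and 66.5% in elav and 64.4%, 53.5%, 55.1% and 42.5% in fru P1, and B-H1 and B-H2, homeobox genes of photoreceptor fate, also had no overlap. Phototransduction genes, which work in the finished photoreceptor, had 10 of 26 above 0 and a median of -5.82 points. This lay between the retinal determination genes and all genes (27.0% above 0, median -11.16 points). Their scaled median was 4.15 points, against -3.40 for all genes. The opsin gene Rh2, 1 of 3 members wholly below, was at 21.6%, 15.7%, 0% and 36.8% in elav and 100%, 36.9%, 100% and 94.4% in fru P1. The opsin gene ninaE went the other way, averaging 60.6% in elav and 45.8% in fru P1, with overlap. Temporal factors counted 14 of 19 above 0 (median 8.66), Kr and svp without overlap.

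Genes of neuronal wiring had about the median difference of all genes, but more often no overlap between the libraries. In the joined lists of axon guidance genes, the Beat and Side proteins and the Dpr and DIP proteins, which are surface molecules by which axons and synaptic partners recognise each other, 68 of 84 tested members were less covered in elav. In 34 members every elav library lay below every fru P1 library and in 3 every elav library lay above. These genes are long, and long genes showed such separation more often: of the 58 listed members of at least 20 kb, 28 lay wholly below (48.3%), and of all 874 tested genes of that length 244 did (27.9%). Their median difference of -11.48 points was close to the -11.16 points of all genes. With scaled coverage 47 of the 84 were below 0, where 42.9% of all genes were above 0, and the scaled median was -1.48 points against -3.40 for all genes. In females 67 of 84 were below 0, where 22.9% of all genes were above 0. Neither count stood far from all genes.

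The libraries of each cell type lay close together in several members. robo3, a Slit receptor, was covered at 34.7%, 28.3%, 35.3% and 34.8% in elav and 58.4%, 54.5%, 53.1% and 55.8% in fru P1. Ten-m had 17.8%, 14.7%, 10.9% and 14.1% in elav and 30.2%, 45.4%, 43.1% and 44.8% in fru P1. drl, a Wnt receptor of axon tracts, had 12.8%, 12.4%, 15.2% and 15.1% in elav and 49.3%, 34.2%, 41.4% and 31.1% in fru P1. Sema1a, robo1, sli, Dscam2, Dscam4, Lar, CadN2, unc-5, caps, comm, hbs, sns, Sema1b and Sema2b made up the 17 of 34 axon guidance genes that lay wholly below. Beat and Side genes counted 10 of 22 wholly below, among them side, beat-IV and beat-VI, and 1, beat-Va, wholly above. Dpr and DIP genes counted 7 of 28 wholly below, among them dpr6, dpr10 and dpr12, and 2 wholly above, with a median of -8.93 points. That share wholly below is no higher than the 27.9% among all genes of at least 20 kb. Those 2 were dpr21 and DIP-lambda, both on 2R. DIP-lambda had 27.9%, 27.0%, 28.9% and 27.8% in elav and 16.2%, 15.1%, 14.8% and 16.1% in fru P1.

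Receptors for transmitters and peptides lay near all genes. Of 81 members of 7 joined lists 13 were above 0, none lay wholly above and 14 lay wholly below (17.3%, against 10.0% of all genes and 27.9% of genes of at least 20 kb). Their median was -9.88 points, against -11.16 for all genes. None of the 9 dopamine and serotonin receptors was more covered in elav, and 5-HT1A, 5-HT1B, 5-HT7 and Dop1R2 lay wholly below. 5-HT1B had 20.9%, 10.4%, 8.17% and 9.31% in elav and 40.2%, 49.96%, 37.5% and 37.6% in fru P1. None of the 8 octopamine and tyramine receptors was above 0 either, at a median of -15.54 points. The GABA-B receptor subunit gene GABA-B-R2 had 0%, 0%, 13.1% and 0% in elav and 43.1%, 24.3%, 73.3% and 35.2% in fru P1. VGlut, the vesicular glutamate transporter, went the other way, with 62.2%, 55.2%, 73.1% and 55.7% in elav and 40.3%, 26.1%, 51.8% and 43.9% in fru P1. Among ecdysone response genes, which act in metamorphosis, Eip63E, Eip75B, Eip78C, Hr3 and ImpE1 lay wholly below, 5 of 17, and ImpL2 lay wholly above, where 10.0% and 1.64% of all genes did. Most of these genes are long, with 15 of the 17 reaching 5 kb. Of all genes of at least 20 kb, 27.9% lay wholly below and 4.23% wholly above. The median of this list, -11.09 points, was close to that of all genes.

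Families of chemosensory and metabolic genes were mixed. Odorant receptors had 28 of 55 above 0 (median 3.19), ionotropic receptors 36 of 63 (5.01), gustatory receptors 22 of 59 (-6.44) and cytochrome P450 genes 41 of 78 (0.873). In females the medians were -7.49 points for odorant, -17.79 for ionotropic and -10.82 for gustatory receptors and -0.120 for cytochrome P450 genes. Few of their tested members reach 5 kb (1, 3, 2 and 4 in the same order). Long noncoding RNA genes had 191 of 444 above 0 (-4.44). The 23 tested genes of pericentric heterochromatin had 20 above 0, at a median of 4.49 points, with Marf1, CG40006, dpr21, AGO3 and Myo81F wholly above. Of all genes 1.64% lay wholly above, and of genes of at least 20 kb 4.23%. Of the 23 tested, 20 reach 5 kb. Genes for heterochromatin proteins themselves had 3 of 14 above 0 (median -14.70).

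**Figure D5:**
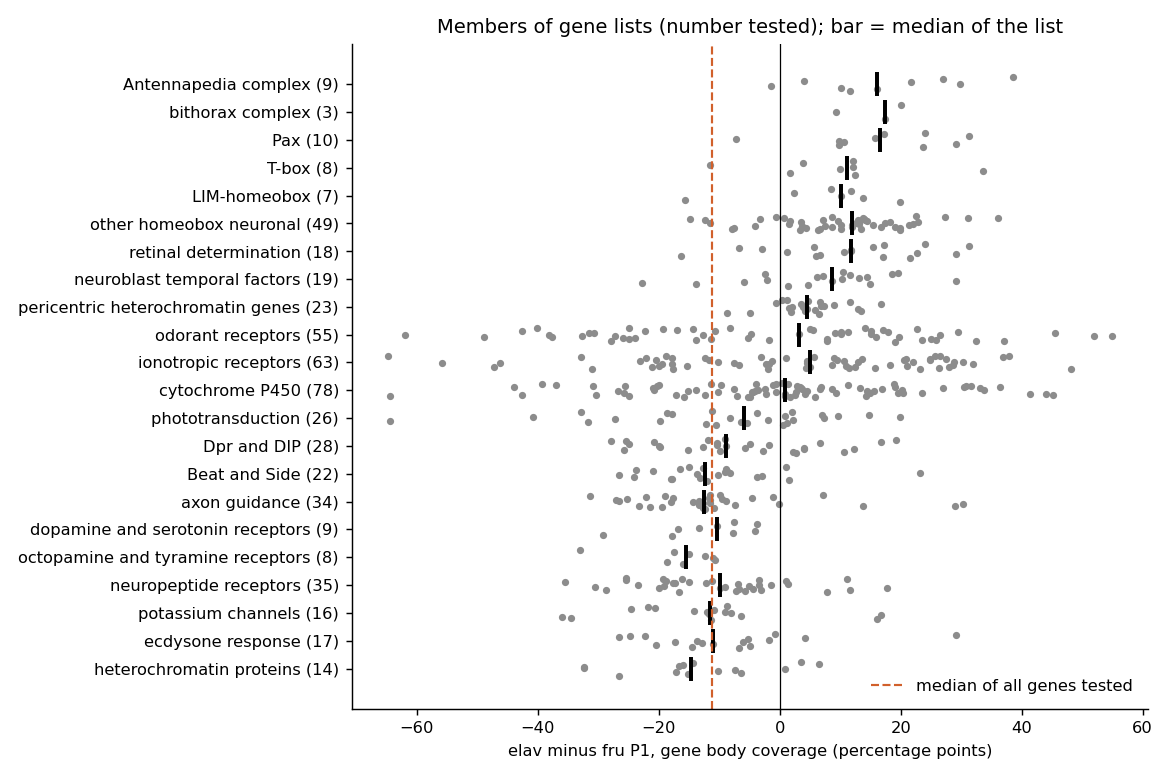
Elav minus fru P1 difference in gene body coverage, in percentage points, for the tested members of 22 gene lists; each point is a gene, each black bar the median of its list, the dashed line the median of all 9484 genes (-11.16). Lists of developmental transcription factors have medians of 8.66 to 17.43 points. Lists of wiring genes and of receptors for transmitters and peptides have medians of -15.54 to -8.93 points, on both sides of the dashed line. Odorant and ionotropic receptors have medians of 3.19 and 5.01 points.

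The driver genes did not separate the cell types. The fru locus (3R, 18414273-18545586) was covered at 49.97%, 48.6%, 40.3% and 46.3% in elav and 51.4%, 53.2%, 42.2% and 46.7% in fru P1, a difference of -2.09 ± 9.17 points (SE, adjusted p = 0.909, limma), which turned to 12.2 points with scaled coverage (adjusted p = 0.532). The elav gene, on the X, had peaks in elav replicate 1 alone (3.46% of the gene) and was too little covered to be tested. dsx, the other sex determination gene of these neurons, stood at 60.1 ± 6.52% in elav and 49.4 ± 9.26% in fru P1 (SD, n = 4 each, adjusted p = 0.526, limma).

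Coverage by a repressive mark does not measure expression, so cell type markers were read only as levels. Among neuronal markers, elav and para averaged at most 3.11% in either cell type. Both are on the X, where few peaks were called in males. The markers nSyb, Syt1, brp and Syn averaged 8.13% to 13.2% in elav and 6.07% to 25.6% in fru P1. The glial genes repo, gcm, alrm, wrapper and moody averaged 48.8%, 90.2%, 42.5%, 41.5% and 13.5% in elav and 63.7%, 87.3%, 21.6%, 20.1% and 2.27% in fru P1, and the libraries overlapped in each. The photoreceptor genes ninaE and trp averaged 60.6% and 35.2% in elav and 45.8% and 68.0% in fru P1, with ranges that overlapped.

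Few genes had peaks in only 1 of the cell types. Of 12180 genes of at least 1 kb, 8 had a peak in all 4 elav and no fru P1 library (0.0657%) and 208 in all 4 fru P1 and no elav library (1.71%), while 3454 had a peak in all 8 libraries and 1234 in none. The 8 were dj, Cyp6a17, arg, CG17821, CG6067, CG15347, CR34285 and lncRNA:CR32730, the last with arg, CG6067 and CG15347 on the X. dj, a gene of the sperm tail, was covered at 68.7% on average in elav. With peaks of p 0.05 or less the counts were 21 and 126.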

How the data were processed

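H3K9me3 was measured in 4 elav and 4 fru P1 libraries of 1-day males, grouped by their labels. Per the labels and the study's methods, the authors used Trimmomatic for trimming, Bowtie2 2.2.5 for alignment and SAMtools 1.2 for keeping unique alignments, and called broad peaks with MACS2 (2.1.0 in the notes, 2.1.1.20160309 in the headers) in each library separately, at p of 0.01 for strong and 0.1 for weak regions with 1 tag kept per position. As deposited, each list gives the region (bp in dm6), the pileup (a signal of stacked fragments), the fold enrichment (a ratio to the local background) and the −log10 p, all computed by the authors' MACS2 run per the file headers. The −log10 p ranked peaks in alternatives only.

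The lists were converted to percent of bases covered, per arm, per gene body of at least 1 kb (Ensembl release 115) and per 10 kb bin. Coordinates fitted the arm lengths of RefSeq Release 6. Genes and bins with a mean coverage of at least 5% over the 8 libraries were tested with limma 3.58.1 in R 4.3.3 (lmFit, eBayes with a trend, Benjamini-Hochberg, 0.05), and whole-library values by exact permutation, two-sided. Peak coverage depends on depth and on the input used, and low enrichment limits precision. The labels do not say more about replicates than their number and the flies pooled, so p-values measure the spread between these samples. Replicate numbers did not pair samples. Genes were named as those of at least 5 kb passing the test, or, when none passed, those without overlap, 12 in each direction by difference, leaving out CG, CR and RNA symbols and the shorter of overlapping genes. Members and gene lists were chosen with earlier results of these data known. The scripts were tested on simulated data. Alternatives were the replicate block, an arcsine scale, scaled coverage, other filters, peak thresholds, bin sizes and leaving out each library.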

Additional observations from a re-analysis of the deposited data

Results flagged for a closer look

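Of 74 groups of 4 libraries examined, 6 had 1 library far from the others, where chance gives about 1 in 20. The median peak width of elav replicate 3 was 640.0 bp, against 940 to 986 bp in the other elav libraries. Poxm was covered at 64.7% in fru P1 replicate 1, against 54.0% to 55.0% in the other 3. In 4 of the lower genes 1 elav library had peaks and the other 3 had none. Such a group is flagged whatever the value of that 1 library, so the rate of 1 in 20 does not apply to these 4. Sec31 had 16.6% in elav replicate 2, Dred 7.66% in elav replicate 3, scra 18.5% in elav replicate 4 and Lpt 7.21% in elav replicate 3.

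The Y chromosome took no part in the comparisons. The lists held a median of 39 peaks on Y in elav males and 20 in fru P1 males, while the 8 female lists held 0 to 2. Elav replicate 3 had 74 of them.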

How the results depend on the processing

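Replicate numbers did not pair the samples (same-number correlations of deviations from the group means of -0.0844 to 0.0609, with 0 of 4 over 0.1). With the replicate block the exact p can reach 0.125 only, so the 11 library differences kept their size but could not pass: -6.69, -6.26, -6.37 and -7.57 points for 2L, 2R, 3L and 3R, 15.6 for chromosome 4, 4.505 for the centromere ends, -7.20 for the rest, -8.41 for gene bodies, -3.23 for intergenic sequence, -3.34 around starts and -172 bp in width. The block gave 40 higher and 386 lower bins, and no gene passed in it (limma, 193 higher and 1262 lower at an unadjusted p under 0.05). With the 10000 peaks of smallest p these became -1.502, -1.20, -1.31 and -2.19 for the arms, -1.85 for the rest, -2.17 for gene bodies, -0.310 for intergenic sequence, -0.275 around starts and -206 bp, none passing, while the X passed at 1.38 points. With peaks of p 0.05 or less, starts stood at -3.04 points (exact permutation p = 0.0571). The cause was not tested for any of these.

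Higher and lower genes numbered 4 and 150 on the arcsine scale, 3 and 35 at a mean coverage of 20%, 15 and 241 at 5 kb or longer, and 0 and 2 without the filter on low coverage. Higher and lower bins numbered 99 and 722 on the arcsine scale, 378 and 284 with scaled coverage, 6 and 13 without the filter, 0 and 0 with peaks of p 0.05 or less (484 and 1734 at an unadjusted limma p under 0.05), 0 and 0 with 10000 peaks, 0 and 1 in 5 kb bins, and 136 and 860 in 20 kb bins. In females, scaled coverage gave 153 higher genes, and 966 higher and 616 lower bins. Genes with peaks in elav alone numbered 5 with an overlap of 500 bp and 21 with peaks of p 0.05 or less, and those in fru P1 alone 126 with the same peaks of p 0.05 or less. The fru difference turned to 12.2 points with scaled coverage.

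With 1 library left out, chromosome 4 ranged from 12.1 to 17.8 points, intergenic sequence from -3.93 to -2.47, starts from -3.93 to -2.39, width from -206 to -90.7 bp and the number of peaks from -3381 to -422. Chromosome 4 no longer passed without elav replicate 4, fru P1 replicate 3 or fru P1 replicate 4, intergenic sequence without any 1 fru P1 library, starts without any 1 elav library, and width without elav replicate 3 or any 1 fru P1 library, while the number of peaks passed without elav replicate 3. Genes ranged from 0 to 9 higher and 0 to 166 lower (9 and 166 without fru P1 replicate 1, 2 and 43 without fru P1 replicate 2), and bins from 0 to 123 higher and 0 to 833 lower. Female genes ranged from 1 to 38 higher and 2 to 481 lower, and female bins from 137 to 421 and 179 to 1479. Genes without overlap, recounted after the data were seen, ranged from 200 to 281 above and 1065 to 1613 below, and bins from 454 to 682 and 1520 to 1924. Leaving out a library can only keep or raise such a count, so these ranges cannot show a loss. Depth was taken into account only through scaled coverage and equal numbers of peaks, and its part in the differences was not tested.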
